A study of Mus musculus with 167 samples.

Results

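Bile acid synthesis, transport and control were followed through 10 genes in mouse liver, by sequencing of polyA RNA. The genes were listed by name (Cyp7a1, Cyp8b1, Cyp7b1, Cyp27a1, Abcb11, Abcb4, Slc10a1, Nr0b2, Nr1h4 and Baat). No measured value entered that rule, but earlier results of these data were known when the genes were chosen. All 10 were found among the 39179 genes of the deposited tables. All 10 also passed the low-count filter at each age, as did 15137 genes at 2 months, 15640 at 6 months and 15689 at 10 months. The libraries came from C57BL/6 mice of 7 genotypes at 2, 6 and 10 months of age. There were wild-type mice, caged with Q20 animals, and 6 knock-in lines, each with an Htt allele named for the length of its CAG tract (Q20, Q80, Q92, Q111, Q140 and Q175). Every knock-in animal was heterozygous and so kept a normal Htt allele. Groups held 8 libraries, 4 of females and 4 of males, except Q80 with 3 females and 5 males by label at 2 months and 4 females and 3 males at 10 months. Htt transcripts averaged 21.6 ± 3.19 CPM in Q175 and 29.8 ± 3.37 CPM in Q20 livers at 2 months (SD, n = 8 each), where CPM is a gene's count relative to the TMM-normalized library size.

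Bile acids are made from cholesterol in hepatocytes. Cyp7a1 is the rate-limiting enzyme of the classic pathway, and Cyp8b1 directs its product to cholic acid. Cyp27a1 hydroxylates the side chain and starts the alternative pathway, where Cyp7b1 is the next hydroxylase. Baat joins the finished acids to taurine or glycine. Slc10a1 takes bile acids up from blood, Abcb11 pumps them into bile, and Abcb4 moves phosphatidylcholine into bile. Nr1h4 encodes the bile acid receptor FXR, which turns on Abcb11 and Nr0b2, and Nr0b2 encodes SHP, a repressor of Cyp7a1 and Cyp8b1.

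RefSeq promoters (GRCm38.p6) were found for 7 of the 10 genes, and 3 are shown: Cyp8b1 for its difference between the sexes, and Abcb11 and Nr0b2 as textbook targets of the receptor. Each run is the 250 bases before the RefSeq start, 5′ to 3′ on the strand of the gene. They lie at chr9:121916306-121916555 (Cyp8b1, minus strand), chr2:69342617-69342866 (Abcb11, minus) and chr4:133553126-133553375 (Nr0b2, plus). Capitals mark matches to 4 motifs, which were chosen with these sequences in view and searched on both strands.
Cyp8b1: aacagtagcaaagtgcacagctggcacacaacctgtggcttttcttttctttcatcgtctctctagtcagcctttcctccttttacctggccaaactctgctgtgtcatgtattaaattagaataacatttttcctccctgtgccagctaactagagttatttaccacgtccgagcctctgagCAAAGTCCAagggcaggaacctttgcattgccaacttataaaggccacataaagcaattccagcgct
Abcb11: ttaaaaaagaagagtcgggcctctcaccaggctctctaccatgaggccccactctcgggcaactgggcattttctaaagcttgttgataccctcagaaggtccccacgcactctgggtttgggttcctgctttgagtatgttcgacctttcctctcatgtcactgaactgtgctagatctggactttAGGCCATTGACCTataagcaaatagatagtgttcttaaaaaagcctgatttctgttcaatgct
Nr0b2: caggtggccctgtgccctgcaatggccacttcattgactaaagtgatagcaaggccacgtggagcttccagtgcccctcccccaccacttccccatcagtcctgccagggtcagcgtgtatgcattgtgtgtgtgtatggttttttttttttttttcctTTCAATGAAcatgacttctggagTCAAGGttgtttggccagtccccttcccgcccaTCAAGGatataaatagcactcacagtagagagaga
The capitals in Abcb11 match AGGNCA, any base and TGACCT in a row, an inverted repeat of the kind FXR binds, which 0.0335% of 32851 promoter windows of this length hold. In Cyp8b1 they mark CAAAGTCCA, a core of the kind HNF4A binds, held by 0.384% of the windows. Nr0b2 holds TCAAGG, a core of the kind NR5A2 binds, at 2 places and TTCNNNGAA, the palindrome of the kind STAT5 binds, at 1 place. These motifs stand in 12.5% and 7.02% of the windows. No matches overlapped in these 3 sequences. A match describes letters, and binding was not measured.

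Library totals ran from 32025244 to 57151736 expected counts (median 38663519). All 7 hepatocyte markers measured were detected in every library and summed to between 67988 and 143987 CPM. Sex-specific genes went with the label in all libraries but 1. That was a Q80 library of 2 months labelled male (M5), whose name carries the code seen on female libraries of that age. It is left out of the levels by sex below, and the fits keep it. Names of female and male libraries carry different codes, so that sex and what the code stands for cannot be told apart. Knock-in libraries of 6 months have another form of name than the wild types, and some libraries of 2 and 10 months have a shorter form. Each log2 fold change stands with its standard error, and adjusted p-values are Benjamini-Hochberg values over all genes tested with edgeR's quasi-likelihood test, at a threshold of 0.05. In this test a difference is set against the spread between the animals sampled. In whole liver, fewer cells of a type and less RNA per cell cannot be told apart.

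Per length of transcript the uptake carrier Slc10a1 was the highest of the 10 genes in both sexes, with 423 ± 56.6 FPKM in females and 354 ± 63.7 FPKM in males (fragments scaled to transcript length and library; SD, n = 83 each). Cyp27a1 came next, with 217 ± 26.2 FPKM in females and 236 ± 21.3 FPKM in males. The female order then ran Abcb11, Baat, Nr1h4, Cyp7a1, Abcb4, Cyp8b1, Nr0b2 and Cyp7b1, ending at 11.5 ± 1.93 FPKM. The male order ran Cyp8b1, Abcb11, Cyp7b1, Baat, Nr1h4, Abcb4, Cyp7a1 and Nr0b2, ending at 21.5 ± 9.5 FPKM. Cyp8b1 and Cyp7b1 thus stood near the bottom in females and in the upper part in males. Several neighbours were not apart beyond their spread. In females Abcb11 exceeded Baat in 54 of 83 libraries, Nr1h4 exceeded Cyp7a1 in 50 and Cyp7a1 exceeded Abcb4 in 49. In males Cyp8b1 exceeded Abcb11 in 47 of 83, Abcb11 exceeded Cyp7b1 in 48, Cyp7b1 exceeded Baat in 44 and Nr1h4 exceeded Abcb4 in 44.

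Females and males differed in most of these genes, and most widely in the hydroxylases that act after Cyp7a1 and Cyp27a1. At 2 months 8 of 10 were called, 2 higher and 6 lower in females, where 57.6% of all genes were called. At 6 months all 10 were called, 3 higher and 7 lower, against 60.9% of all genes. At 10 months 7 were called, 2 higher and 5 lower, against 57.2%. The median log2 fold change of the 10 genes, females over males, was −0.24, −0.30 and −0.28 at 2, 6 and 10 months, and that of all genes tested was 0.011, 0.0083 and 0.020. Clock genes also differed by sex. At 6 months the 10 measured summed to 811 to 979 CPM in Q20 females and 214 to 573 CPM in Q20 males. In Q175 livers the sums were 718 to 787 CPM in females and 244 to 543 CPM in males. At 10 months the highest Q20 sum, 792 CPM, was in a male (M2). The part of clock phase in the sex differences was not tested.

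**Figure D1:**
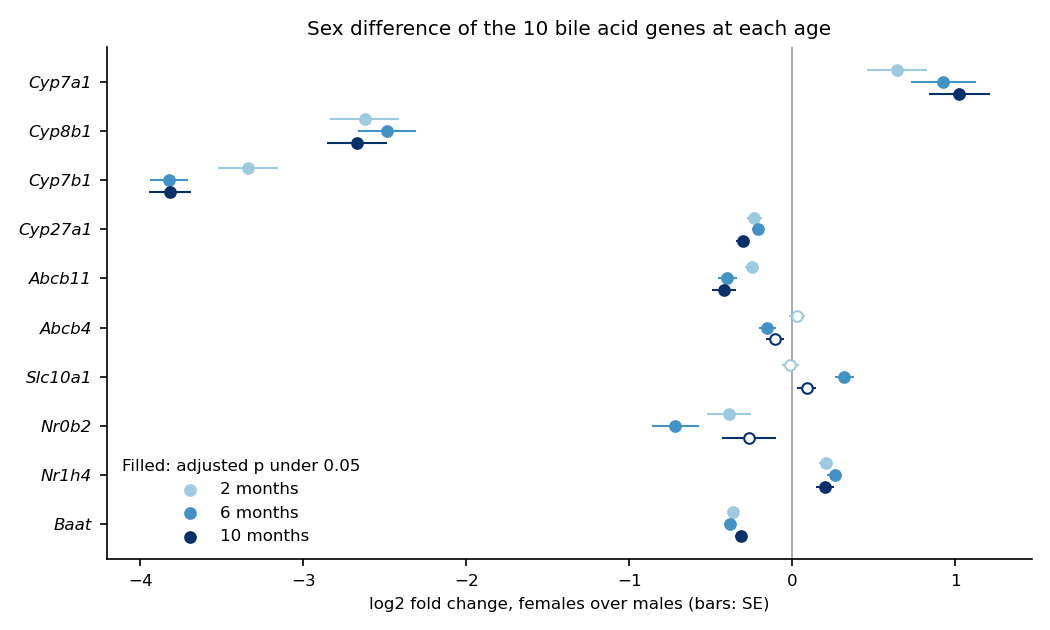
Log2 fold change of females over males (horizontal axis) for each of the 10 genes (rows) at 2, 6 and 10 months, with standard error bars; filled points had an adjusted p under 0.05. Cyp7b1 lies between −3.34 and −3.82, and Cyp7a1 lies on the other side of 0, between 0.64 and 1.03.

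Cyp7b1 (ENSMUSG00000039519, GRCm38 chr3:18071950-18243338, minus strand), the hydroxylase of the alternative pathway, showed the widest difference. At 2 months it had 14.2, 22.1 and 32.8 CPM in females (lowest, median and highest) and 62, 197 and 478 CPM in males. Values at 6 months were 13.3, 24.1 and 33.1 CPM in females and 148, 329 and 700.5 CPM in males. At 10 months they were 18.1, 24.3 and 31 CPM in females and 137, 358 and 790.5 CPM in males. No female reached the lowest male at any age, and the females lay close together while the males spread widely. In all 21 groups of genotype and age every female was below every male, and the male mean was 7.65 to 18.9 times the female mean. Females over males, Cyp7b1 had a log2 fold change of −3.34 ± 0.19, −3.82 ± 0.11 and −3.82 ± 0.13 by age (adjusted p = 1.2e-21, 3.6e-34 and 3.3e-31). The library M5 had 22 CPM, within the female range.

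Cyp8b1 (ENSMUSG00000050445, GRCm38 chr9:121914360-121916300, minus strand), which sets the share of cholic acid, was also lower in females. At 2 months it had 6.50, 40.6 and 274 CPM in females (lowest, median and highest) and 123, 301 and 632 CPM in males. Values at 6 months were 18.3, 72.3 and 189 CPM in females and 212, 389 and 689 CPM in males. At 10 months they were 5.93, 50.6 and 114 CPM in females and 189, 263 and 514 CPM in males. The sexes were apart at 6 and 10 months, and at 2 months 2 of 27 females reached the male range. Within each of the 21 groups every female was below every male, and the male mean was 3.04 to 15.5 times the female mean. By age its log2 fold change was −2.62 ± 0.21, −2.49 ± 0.18 and −2.67 ± 0.18 (adjusted p = 1.3e-15, 1.6e-17 and 4.2e-18). M5 had 19.1 CPM, below every male.

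Cyp7a1 (ENSMUSG00000028240, GRCm38 chr4:6265612-6275633, minus strand), the entry enzyme of the classic pathway, went the other way. Females averaged 222 ± 148, 237 ± 129 and 309.9 ± 138 CPM at 2, 6 and 10 months and males 144 ± 84.8, 121 ± 47.9 and 156 ± 73.2 CPM (SD, n = 27, 28 and 28 females and 28, 28 and 27 males). The ranges overlapped at each age, with 14 of 28 females above the highest male and 1 below the lowest male at 6 months. Cyp7a1 had log2 fold changes of 0.64 ± 0.18, 0.93 ± 0.20 and 1.03 ± 0.19 (adjusted p = 0.0025, 7.1e-05 and 6.3e-06). The female mean was the higher in 19 of 21 groups. Every female was above every male in 7 groups, and every female was below every male in 1 group, Q80 at 6 months.

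Cyp27a1 (ENSMUSG00000026170, GRCm38 chr1:74713574-74737892, plus strand), the mitochondrial side-chain hydroxylase, was lower in females by a small amount. It averaged 413 ± 59.1, 404 ± 46.4 and 360.3 ± 44.3 CPM in females and 483 ± 40.6, 468 ± 41.3 and 447 ± 37.5 CPM in males at 2, 6 and 10 months, with overlapping ranges. Its log2 fold change was −0.23 ± 0.046, −0.21 ± 0.039 and −0.30 ± 0.039 (adjusted p = 2.0e-05, 7.3e-06 and 3.7e-09). On FPKM the 6-month call was lost (−0.080, limma, adjusted p = 0.0524).

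**Figure D2:**
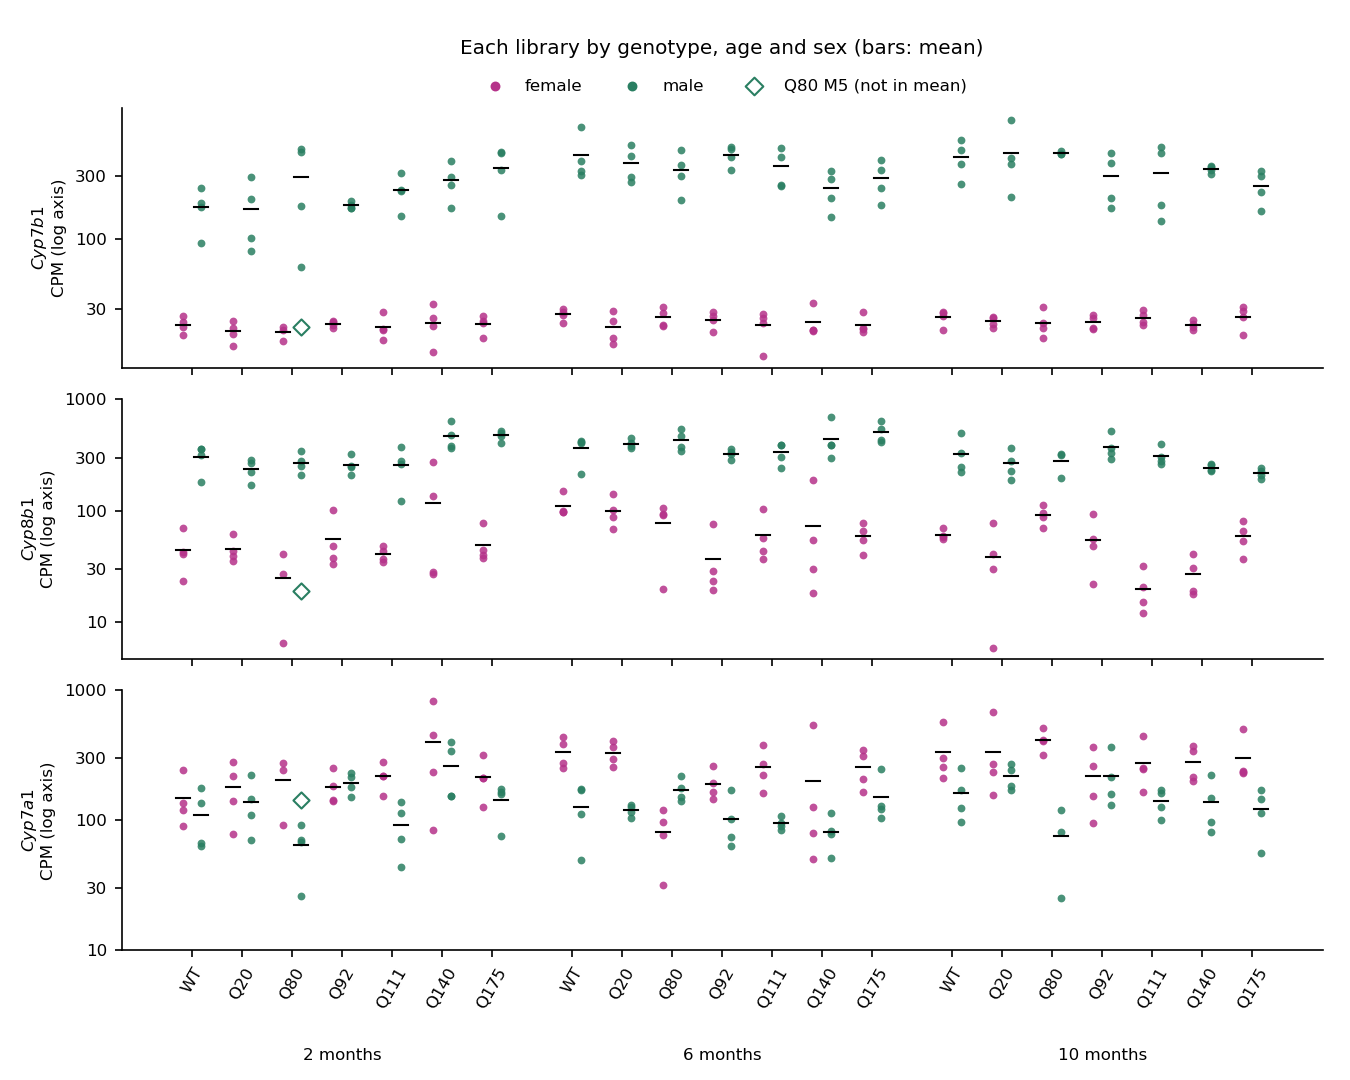
CPM on a log axis of Cyp7b1, Cyp8b1 and Cyp7a1 in every library, by genotype and age (horizontal axis), females left of males, with bars at the mean; the open diamond is the Q80 library M5, left out of its mean. Females and males are apart in all 21 groups for Cyp7b1 and Cyp8b1, and overlap in most groups for Cyp7a1.

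Baat (ENSMUSG00000039653, GRCm38 chr4:49489422-49506557, minus strand), the conjugating enzyme, was lower in females by a steady amount. At 2 months it had 189, 218 and 260.3 CPM in females (lowest, median and highest) and 247, 286 and 319.7 CPM in males. Values at 6 months were 147, 203 and 256 CPM in females and 219, 249 and 339 CPM in males. At 10 months they were 166, 222 and 259.6 CPM in females and 229, 276 and 319 CPM in males. The pooled ranges overlapped, and in 17 of 21 groups every female was below every male. Females over males, the log2 fold change was −0.36 ± 0.030, −0.38 ± 0.035 and −0.31 ± 0.038 (adjusted p = 3.3e-15, 1.5e-13 and 9.4e-10).

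The export pump Abcb11 (ENSMUSG00000027048, GRCm38 chr2:69238282-69342616, minus strand) was lower in females at each age. It averaged 659 ± 90.9, 577 ± 129.9 and 567 ± 158 CPM in females and 791 ± 101, 754 ± 75.5 and 749 ± 95.9 CPM in males at 2, 6 and 10 months, with overlapping ranges. Its log2 fold change was −0.25 ± 0.044, −0.40 ± 0.058 and −0.42 ± 0.073 (adjusted p = 4.1e-06, 6.0e-08 and 2.8e-06). The phospholipid transporter Abcb4 (ENSMUSG00000042476, GRCm38 chr5:8893717-8959231, plus strand) lies 25.9 Mb from Htt. It averaged 211 ± 26.9, 196 ± 33 and 195 ± 25.6 CPM in females and 207 ± 26.7, 218 ± 24.8 and 210.1 ± 32 CPM in males, so the sexes lay within 1 SD of each other. Its log2 fold change was 0.029 ± 0.049, −0.15 ± 0.053 and −0.11 ± 0.055 (adjusted p = 0.62, 0.010 and 0.094). The direction of Abcb4 depended on the scale: on FPKM it was 0.12 (limma, adjusted p = 0.025) at 2 months and 0.048 (limma, adjusted p = 0.46) at 10 months. Without the libraries holding muscle or blood RNA above the limit set, Abcb4 passed at 10 months (−0.14, adjusted p = 0.036). On FPKM the median log2 fold change of all genes was 0.091, 0.12 and 0.15 at the 3 ages. The 6-month call was lost on FPKM (−0.027, limma, adjusted p = 0.68) and when F1, F3 and F4 of the Q20 females were left out (−0.10, adjusted p = 0.083).

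The uptake carrier Slc10a1 (ENSMUSG00000021135, GRCm38 chr12:80953183-80968705, minus strand) was higher in females at 6 months. It averaged 665 ± 89.7, 713 ± 95.7 and 654 ± 76.4 CPM in females and 668 ± 90.9, 574 ± 96.6 and 621 ± 118 CPM in males at 2, 6 and 10 months. The log2 fold change was −0.010 ± 0.052, 0.32 ± 0.058 and 0.091 ± 0.058 (adjusted p = 0.88, 5.2e-06 and 0.18). The sex difference at 6 months exceeded that at 2 months by 0.33 ± 0.080 (adjusted p = 0.019), and Slc10a1 was the 1 member called there against 0.961% of all genes. At 10 against 2 months 0 members were called for this difference, also with DESeq2 (background 3.38%). There 2 members and 3031 of all 16235 genes had an unadjusted p under 0.05. On FPKM Slc10a1 passed at 10 months too (0.25, limma, adjusted p = 4.2e-04). The median of all genes was 0.15 on that scale and 0.020 in the main fit.

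Nr1h4 (ENSMUSG00000047638, GRCm38 chr10:89454234-89533585, minus strand), the receptor, was higher in females. It averaged 127 ± 14.5, 118 ± 18.2 and 134 ± 19.5 CPM in females and 109 ± 11.6, 98.3 ± 16.3 and 116 ± 16.3 CPM in males at 2, 6 and 10 months, with overlapping ranges. The log2 fold change was 0.21 ± 0.043, 0.26 ± 0.046 and 0.20 ± 0.057 (adjusted p = 4.6e-05, 2.1e-06 and 0.0022), and the female mean was the higher in 19 of 21 groups. Nr0b2 (ENSMUSG00000037583, GRCm38 chr4:133553380-133556540, plus strand), which encodes SHP, was lower in females at 2 and 6 months. At 2 months it had 5.92, 21.4 and 30.8 CPM in females (lowest, median and highest) and 10.7, 23.4 and 47.5 CPM in males. Values at 6 months were 7.52, 17.1 and 38.6 CPM in females and 8.56, 29 and 49.2 CPM in males. At 10 months they were 4.14, 16.7 and 30.6 CPM in females and 4.90, 17.8 and 41.4 CPM in males. The ranges overlapped at every age. Nr0b2 had log2 fold changes of −0.39 ± 0.13, −0.72 ± 0.15 and −0.26 ± 0.17 (adjusted p = 0.011, 3.1e-05 and 0.18). The 2-month call was lost on FPKM (−0.26, limma, adjusted p = 0.072).

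Other genes of the pathway also differed by sex, in both directions. Of 11 further synthesis and conjugation genes tested, females had 5 higher and 5 lower at 2 months, 4 higher and 6 lower at 6 months and 3 higher and 5 lower at 10 months, where 57.6%, 60.9% and 57.2% of all genes were called at these ages. Scp2, a sterol carrier and peroxisomal thiolase, had log2 fold changes of −1.07 ± 0.054, −1.27 ± 0.042 and −1.22 ± 0.043 at the 3 ages. Acox2, the branched-chain acyl-CoA oxidase, had −0.86 ± 0.056, −0.82 ± 0.063 and −0.86 ± 0.058. Cyp39a1, an oxysterol hydroxylase, was higher in females, by 1.19 ± 0.14 at 2 months and 1.32 ± 0.11 at 6 months. Of 11 further transport genes, females had 7 higher and 3 lower at 2 months, 7 higher and 3 lower at 6 months and 6 higher and 4 lower at 10 months. The organic anion carrier Slco1a1 had −2.82 ± 0.19, −4.08 ± 0.25 and −6.06 ± 0.26 and the efflux pump Abcc4 had 1.36 ± 0.11, 1.78 ± 0.10 and 2.16 ± 0.13. Both sex differences were wider at 10 than at 2 months, by −3.25 ± 0.31 (adjusted p = 1.3e-15) for Slco1a1 and 0.79 ± 0.17 (adjusted p = 8.7e-04) for Abcc4. Of 13 further regulators, females had 4 higher and 1 lower at 2 months, 5 higher and 3 lower at 6 months and 5 higher and 5 lower at 10 months. Nr1i3, which encodes the receptor CAR, had 1.03 ± 0.11, 1.17 ± 0.091 and 1.03 ± 0.10.

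Few of the 10 genes differed with the length of the CAG tract. At 2 months 0 members passed in any line against Q20. All genes were called at 0.0991% in Q80, 0% in Q92, 0% in Q111, 0% in Q140 and 0.31% in Q175, and 0, 1, 0, 3 and 1 members of these lines had an unadjusted p under 0.05. Of all 15137 genes, 1372, 1079, 903, 2011 and 2170 had such an unadjusted p in these lines. At 10 months 0 members passed in any line either. The backgrounds were 0.0127%, 4%, 1.11%, 0.00637% and 1.26% in the same order of lines, with 1, 1, 1, 1 and 0 members at an unadjusted p under 0.05. Of all 15689 genes, 1061, 3004, 1946, 624 and 2134 had such an unadjusted p. The slope per 100 repeats over the 6 knock-in lines called 0 members at 2 months (background 0.272%, 3 at an unadjusted p under 0.05) and 0 at 10 months (background 0.595%, 0 at an unadjusted p under 0.05). For the slope, 2350 of 15053 genes at 2 months and 1649 of 15629 at 10 months had such an unadjusted p. DESeq2 called 0 members in each of these comparisons.

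The intervals show how wide a difference these counts leave room for. For Cyp7a1 in Q175 over Q20 livers the 95% interval of the log2 fold change was −0.52 to 0.82 at 2 months, −0.75 to 0.65 at 6 months and −1.15 to 0.16 at 10 months. For Baat it was −0.066 to 0.15 at 2 months and −0.22 to 0.058 at 10 months, which is narrower. The widest differences at 2 months were in Q140 and did not pass. Cyp8b1 had 27.3, 274, 136 and 28.5 CPM in Q140 females and 383, 632, 364 and 481 CPM in Q140 males, against 39.2, 35.4, 44 and 61.6 CPM in Q20 females and 171, 269, 286 and 223 CPM in Q20 males. Every Q140 male was above every Q20 male, while the Q140 females lay on both sides of the Q20 females. In Q140 over Q20 livers Cyp8b1 had a log2 fold change of 1.20 ± 0.37 (adjusted p = 0.17). Cyp7a1 had 1.03 ± 0.34 (adjusted p = 0.20) and Nr0b2 −0.56 ± 0.25 (adjusted p = 0.32) in the same comparison. Nr0b2 was above 0 in all 5 lines over Q20 at 6 months (0.44 to 0.63) and at 10 months (0.27 to 0.70), and no line passed. Fitted in females alone, Nr0b2 passed in Q92 at 6 months with 1.21 (adjusted p = 0.0083), against 0.013 (adjusted p = 0.99) in males alone. The 5 lines share the Q20 libraries.

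**Figure D3:**
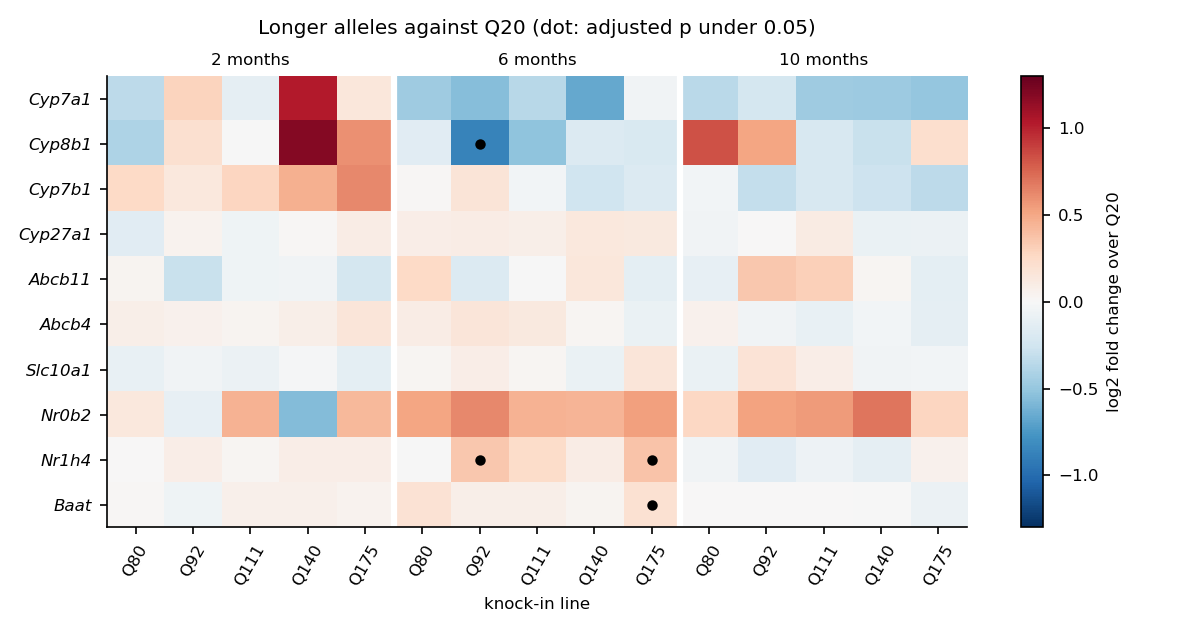
Log2 fold change over Q20 (colour) of the 10 genes (rows) in the 5 longer lines at 2, 6 and 10 months (columns); dots mark an adjusted p under 0.05. The 4 dots lie at 6 months, on Nr1h4 in Q92 and Q175, Baat in Q175 and Cyp8b1 in Q92.

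At 6 months the receptor gene Nr1h4 was higher in Q175 than in Q20 livers. It had 125, 123, 125 and 134 CPM in Q175 females and 80.6, 137, 120.4 and 114 CPM in Q175 males, against 82, 109, 108 and 104 CPM in Q20 females and 88.9, 64.9, 93.4 and 90.6 CPM in Q20 males. Every Q175 library but the male M1 was above the highest Q20 library. The log2 fold change was 0.37 ± 0.085 (adjusted p = 0.0047). Baat had 203, 208, 226 and 197 CPM in Q175 females and 273, 269, 267 and 284 CPM in Q175 males, against 147, 214, 162 and 159 CPM in Q20 females and 230.3, 229.7, 244 and 297 CPM in Q20 males. The groups overlapped in both sexes, through Q20 F2 and M4. The log2 fold change of Baat was 0.20 ± 0.066 (adjusted p = 0.044). These were the 2 members called of 10, where 10.9% of all genes were called. Leaving out any 1 of 10 of the 16 libraries ended the Baat call (5 of Q175, F2, F3, M1, M3 and M4, and 5 of Q20, F1, F3, F4, M1 and M2), with log2 fold changes of 0.16 to 0.26 over all 16.

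In Q92 livers of 6 months 2 members were called (background 18%). Nr1h4 had 125, 151, 149.7 and 123 CPM in Q92 females and 95.8, 112, 85.1 and 122 CPM in Q92 males, with every Q92 female above every Q20 female. Its log2 fold change over Q20 was 0.35 ± 0.085 (adjusted p = 0.0039). Cyp8b1 had 19.4, 76.5, 28.7 and 23.6 CPM in Q92 females and 321, 360.0, 283 and 335 CPM in Q92 males, against 87.1, 141, 102 and 68.1 CPM in Q20 females and 405, 383, 362 and 448 CPM in Q20 males. All but 1 of the Q92 females and all Q92 males were below the Q20 libraries of their sex. Its log2 fold change was −0.86 ± 0.32 (adjusted p = 0.0497), at the threshold. With size factors of DESeq2's kind in place of TMM it was −0.85 (adjusted p = 0.0512), and without the low-count filter −0.85 (adjusted p = 0.070). In Q80, Q111 and Q140 livers 0 members were called (backgrounds 9.3%, 1.24% and 5.98%), with 2, 1 and 0 at an unadjusted p under 0.05. Of all 15640 genes, 4000, 2787 and 3354 had such an unadjusted p. DESeq2 called 1 in Q80, Baat (0.20, adjusted p = 0.044), and 0 in Q111 and Q140. The slope called 1 member, Nr1h4, with 0.20 ± 0.064 per 100 repeats (adjusted p = 0.043, background 6.27%). Its line means did not climb step by step with the repeat: they were 92.5, 92.1, 120.4, 110.2, 99.8 and 119.8 CPM in Q20, Q80, Q92, Q111, Q140 and Q175.

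The 5 lines share the Q20 livers, and these also differed from wild-type livers at 6 months. Nr1h4 had 141, 137, 123 and 136 CPM in wild-type females and 111, 106, 118 and 99.2 CPM in wild-type males. Its log2 fold change in Q20 over the wild type was −0.37 ± 0.085 (adjusted p = 6.3e-04), and that of Baat was −0.34 ± 0.066 (adjusted p = 7.8e-05), the 2 members called against a background of 32.2%. Nr1h4 averaged 119.8 ± 17.4 CPM in Q175, 92.5 ± 14.7 CPM in Q20 and 121 ± 15.6 CPM in wild-type livers (SD, n = 8 each). Q20 and wild-type libraries of 6 months differ in the form of their names, so that genotype and library series cannot be told apart. At 2 and 10 months, where most names of both genotypes share a form, 0 members were called in Q20 over the wild type (backgrounds 0% and 0.0127%), with 0 and 0 at an unadjusted p under 0.05 and 0 by DESeq2, and 0 with the form of the name as a covariate. Of all genes, 500 of 15137 and 363 of 15689 had such an unadjusted p.

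Markers of Kupffer cells, the macrophages of the liver, differed between the same libraries. All 8 were detected in every library, and they summed to 95.3 to 453 CPM in Q175, 209.9 to 459 CPM in Q92 and 302 to 1003 CPM in Q20 livers of 6 months. The Q20 females F1, F3 and F4 had the highest sums, 852, 829 and 1003 CPM. Without these 3 libraries Nr1h4 in Q175 was 0.35 (adjusted p = 0.11), and Baat was 0.083 (adjusted p = 0.61). The slope of Nr1h4 was 0.18 (adjusted p = 0.26), and Cyp8b1 in Q92 was −0.85 (adjusted p = 0.18). In Q92 over Q20, Nr1h4 was the 1 member still called without these 3 libraries. Other marker lists moved too. The 6 neutrophil markers summed to 2.50 to 7.48 CPM in Q175 and 4.16 to 14.7 CPM in Q20 livers, highest in the same 3 females, with up to 2 at 0 in a library. The 3 intestine markers summed to 24.9 to 35.8 CPM in Q175 and 15.4 to 25.8 CPM in Q20 livers, with up to 1 at 0. The part of RNA from these cells in the results was not tested. Numbers in the library names form sets at 6 months that pair Q175 with Q80, Q111 with Q140 and Q92 with Q20. Only Q92 shares a set with Q20, so for the other lines over Q20 genotype and set cannot be told apart. Within the set of Q175 and Q80, Nr1h4 averaged 119.8 ± 17.4 CPM in Q175 and 92.1 ± 9.21 CPM in Q80 livers, and Baat averaged 241 ± 35.9 CPM in Q175 and 239 ± 37.1 CPM in Q80 livers (SD, n = 8 each).

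**Figure D4:**
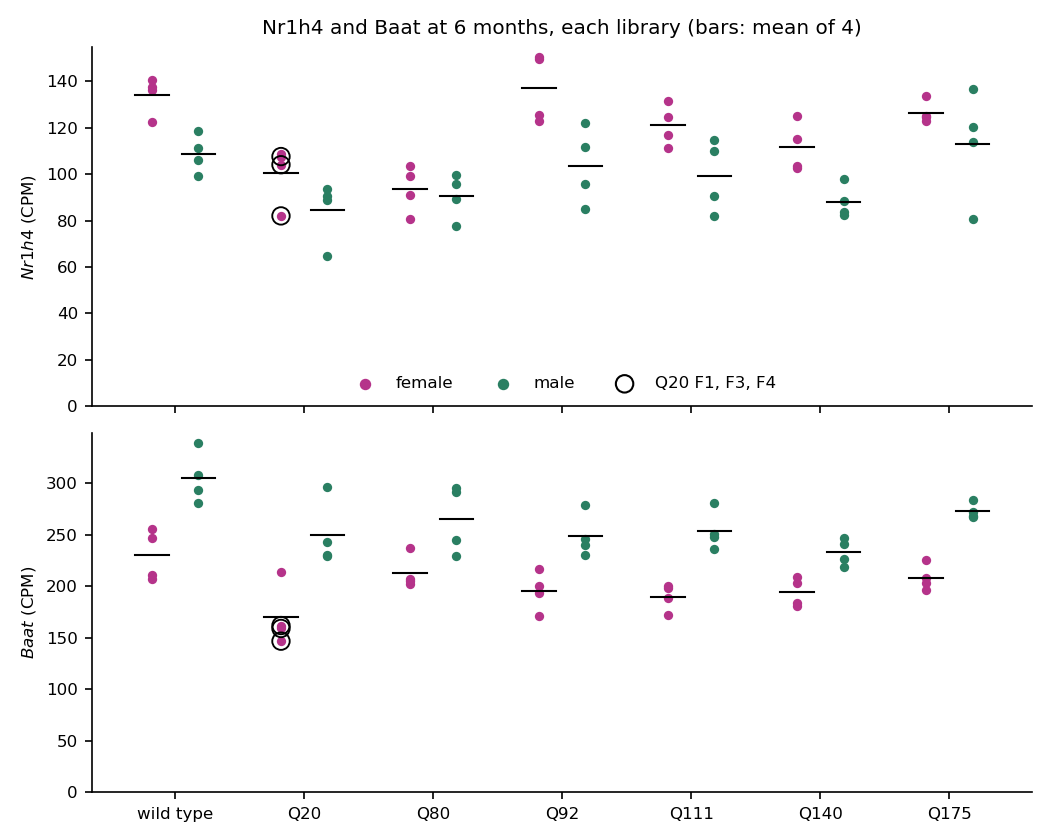
CPM of Nr1h4 and Baat at 6 months in every library, by genotype (horizontal axis), females left of males, with bars at the mean; rings mark the Q20 females F1, F3 and F4. The ringed Baat points (147, 162 and 159 CPM) lie below the other Q20 female (214 CPM).

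Whether females and males differed in their slope with the repeat was tested as the difference of the slopes. At 2, 6 and 10 months 0 members passed (backgrounds 0%, 0.226% and 0.173%), with 0, 2 and 1 at an unadjusted p under 0.05. Of all genes, 803 of 15053, 1972 of 15498 and 2435 of 15629 had such an unadjusted p. DESeq2 called 0, 1 and 0 members at these ages. The nearest was Slc10a1 at 6 months, with −0.47 ± 0.11 per 100 repeats in females minus males (adjusted p = 0.058, and 0.0155 with DESeq2). It had 698, 674, 735 and 695 CPM in Q175 females and 553, 624, 750.1 and 739.5 CPM in Q175 males, against 773, 862, 718 and 760.0 CPM in Q20 females and 484, 324, 527 and 537 CPM in Q20 males. The sexes were apart in Q20 livers and overlapped in Q175 livers. Fitted in 1 sex, Slc10a1 in Q175 over Q20 livers had −0.15 (adjusted p = 0.46) in females and 0.51 (adjusted p = 0.041) in males. In Q140 over Q20 livers it had −0.46 (adjusted p = 0.0097) in females and 0.31 (adjusted p = 0.53) in males. Cyp7a1 in Q80 livers of 6 months, singled out after its values were seen, also split by sex. It had 97, 31.9, 76.8 and 119 CPM in Q80 females and 178, 151, 221 and 139.9 CPM in Q80 males, against 298, 366, 256 and 409.5 CPM in Q20 females and 115, 132, 104 and 127 CPM in Q20 males. Every Q80 female was below every Q20 female, and every Q80 male was above every Q20 male. Fitted in females alone the log2 fold change was −2.03 (adjusted p = 0.017), and in males alone it was 0.53 (adjusted p = 0.53). The differences between the fits of 1 sex were not tested line by line.

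Few of the other pathway genes differed with the repeat. Of 11 synthesis, 11 transport and 13 regulator genes tested, 0 passed for the slope at any age (backgrounds 0.272%, 6.27% and 0.595% at 2, 6 and 10 months). Against Q20 at 6 months 2 of these genes passed in Q140, 2 in Q80 and 1 in Q175 (backgrounds 5.98%, 9.3% and 10.9%). Atp8b1, a flippase of the canalicular membrane, rose in Q140 (0.38 ± 0.093, adjusted p = 0.010) and in Q80 (0.32 ± 0.093, adjusted p = 0.024). Fgfr4, the FGF receptor of bile acid feedback, rose in Q140 (0.34 ± 0.10, adjusted p = 0.031), and the sterol transporter subunit Abcg8 fell in Q175 (−0.44 ± 0.14, adjusted p = 0.035). In Q92 livers of 6 months 3 synthesis genes rose and 2 fell, and 1 regulator rose (background 18%). Acox2 and Hsd3b7, enzymes of later synthesis steps, fell by 0.48 ± 0.12 and 0.54 ± 0.14 on the log2 scale. The thioesterase gene Acot8 rose (0.26 ± 0.087, adjusted p = 0.032), as did Hsd17b4, the peroxisomal bifunctional enzyme (0.21 ± 0.071, adjusted p = 0.036), and Nr1i2, which encodes the receptor PXR (0.34 ± 0.12, adjusted p = 0.043). In Q92 livers of 10 months Acox2 and Hsd3b7 rose (0.43 ± 0.11 and 0.58 ± 0.15), the 2 synthesis genes called, and 1 regulator rose (background 4%). In Q175 livers the exporter subunit Slc51b fell at 2 months (−1.82 ± 0.41, adjusted p = 0.030) and Scp2 fell at 10 months (−0.29 ± 0.078, adjusted p = 0.042), each the 1 gene of these lists called there (backgrounds 0.31% and 1.26%).

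Age was compared within the knock-in lines together and within the wild type. At 10 against 2 months in the knock-in lines, where 42 of 48 libraries of 2 months and 43 of 47 of 10 months share a form of name, 3 members were called (background 22.9%). These were Cyp7b1 with 0.34 ± 0.10, Cyp27a1 with −0.15 ± 0.032 and Abcb11 with −0.13 ± 0.046. At 6 against 2 months 5 were called (background 53.8%), Cyp8b1 with 0.38 ± 0.14, Cyp7b1 with 0.29 ± 0.10, Abcb11 with −0.12 ± 0.046, Nr1h4 with −0.18 ± 0.037 and Baat with −0.17 ± 0.027. At 10 against 6 months 6 were called (background 53.8%), Cyp7a1 with 0.43 ± 0.14, Cyp8b1 with −0.52 ± 0.14, Cyp27a1 with −0.11 ± 0.032, Nr0b2 with −0.39 ± 0.12, Nr1h4 with 0.24 ± 0.038 and Baat with 0.14 ± 0.027. The Abcb11 calls were lost on FPKM (−0.10, limma, adjusted p = 0.10 at 10 against 2 months and −0.075, limma, adjusted p = 0.16 at 6 against 2 months), where Nr1h4 passed at 10 against 2 months (0.10, limma, adjusted p = 0.038). In both comparisons with 6 months, age and the form of the library name cannot be told apart. In the wild type 6, 8 and 7 of 8 libraries at 2, 6 and 10 months share a form of name. There 0 members were called at 6 against 2, 10 against 2 and 10 against 6 months (backgrounds 2.63%, 2.41% and 1.29%), with 3, 5 and 1 at an unadjusted p under 0.05 and 0 by DESeq2. Of all 16235 genes, 3116, 2709 and 3192 had such an unadjusted p in these comparisons. Cyp7b1 at 6 against 2 months had 0.77 ± 0.25 (adjusted p = 0.071), and passed without M5 (0.77, adjusted p = 0.0458), which shares the fit. Wild-type values at 10 against 2 months were 0.71 ± 0.25 (adjusted p = 0.11) for Cyp7b1, 0.86 ± 0.35 (adjusted p = 0.18) for Cyp7a1 and −0.83 ± 0.28 (adjusted p = 0.093) for Nr0b2. Nr1h4 and Baat had 0.10 ± 0.092 and 0.073 ± 0.065 at 6 against 2 months in the wild type, and the difference from the knock-in lines was not tested. Among the other pathway genes, Cyp46a1, the cholesterol 24-hydroxylase, had 1.01 ± 0.11 and Slco1a1 had −1.77 ± 0.17 at 10 against 2 months in the knock-in lines. Cyp46a1 also passed in the wild type, with 1.002 ± 0.27 (adjusted p = 0.018), the 1 further synthesis gene called there. The Slco1a1 value joins both sexes, whose difference changed by −3.25 ± 0.31 between these ages. It therefore does not describe either sex alone.

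The genes differed in how steady they were within a genotype, age and sex. The standard deviation of log2 CPM was 0.71 for Cyp8b1, 0.67 for Cyp7a1, 0.58 for Nr0b2 and 0.55 for Cyp7b1, where the median of 16235 genes was 0.25. Without M5 it was 0.65 for Cyp8b1 and 0.48 for Cyp7b1. The other genes lay below the median, with 0.21 for Abcb11, 0.20 for Slc10a1, 0.19 for Abcb4, 0.17 for Nr1h4, 0.16 for Cyp27a1 and 0.13 for Baat. Group means of Cyp7a1 lay between 127 CPM in Q80 at 6 months and 331 CPM in Q140 at 2 months.

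Animals of a genotype and sex also differed together in some of these genes. Pearson's r and Spearman's rho were computed on log2 CPM after the mean of each genotype and sex was subtracted, for 45 pairs at 3 ages (Benjamini-Hochberg adjusted over all pairs and ages). By r, 12 pairs passed at 2 months, 11 at 6 months and 15 at 10 months, of which 9, 9 and 9 were positive, and 3 pairs passed at each age. The permutations moved these deviations freely over the libraries of an age, without allowance for the subtracted means. Their p-values are therefore somewhat too small. Whether pairs near the threshold would pass with that allowance was not tested. At 2 months M5 was kept here with its male label. There Cyp7b1 passed by r with Cyp8b1 (0.44, adjusted permutation p = 0.014) and with Baat (0.42, adjusted permutation p = 0.0089). By rho neither passed (0.25 and 0.27, adjusted permutation p = 0.15 and 0.11). Without the 2 libraries farthest from the median of the first gene, r was 0.19 and 0.28. Cyp7a1 and the export pump Abcb11 had r of −0.42, −0.45 and −0.35 (rho −0.38, −0.37 and −0.38; adjusted permutation p of r = 0.0097, 0.0046 and 0.034) at 2, 6 and 10 months, in 56, 56 and 55 libraries. Abcb11 and Nr1h4 had r of −0.36, −0.36 and −0.40 (rho −0.34, −0.41 and −0.36; adjusted permutation p of r = 0.028, 0.031 and 0.015). Cyp27a1 and Slc10a1 had r of 0.51, 0.57 and 0.40 (rho 0.42, 0.47 and 0.47; adjusted permutation p of r = 9.8e-04, 2.7e-04 and 0.014). Abcb11 was thus lower where Cyp7a1 or Nr1h4 was higher, and Cyp27a1 and Slc10a1 were high in the same animals. The share of passing pairs among other genes was not computed. Whether such correlations are particular to these 10 genes was thus not tested. Without the 2 libraries farthest from the median of the first gene, r was −0.31, −0.32 and −0.31 for Cyp7a1 with Abcb11, −0.31, −0.38 and −0.41 for Abcb11 with Nr1h4 and 0.37, 0.48 and 0.40 for Cyp27a1 with Slc10a1.

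Other pairs passed at some ages. Cyp7a1 and Nr0b2 had r of −0.63, −0.045 and −0.38 (rho −0.57, −0.11 and −0.34; adjusted permutation p of r = 2.7e-04, 0.81 and 0.025), and r of −0.55, −0.083 and −0.36 without the 2 farthest libraries. Cyp7a1 and Cyp8b1 had r of 0.31, 0.64 and 0.55 (rho 0.38, 0.50 and 0.54; adjusted permutation p of r = 0.063, 2.7e-04 and 3.9e-04), and r of 0.14, 0.51 and 0.48 without them. Cyp7b1 and Abcb4 had r of 0.23, 0.31 and 0.69 (rho 0.064, 0.30 and 0.66; adjusted permutation p of r = 0.19, 0.061 and 2.7e-04), and r of 0.18, 0.28 and 0.65 without them. Whether r differs between ages was not tested. At 6 months 7 pairs passed when F1, F3 and F4 of the Q20 females were left out.

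**Figure D5:**
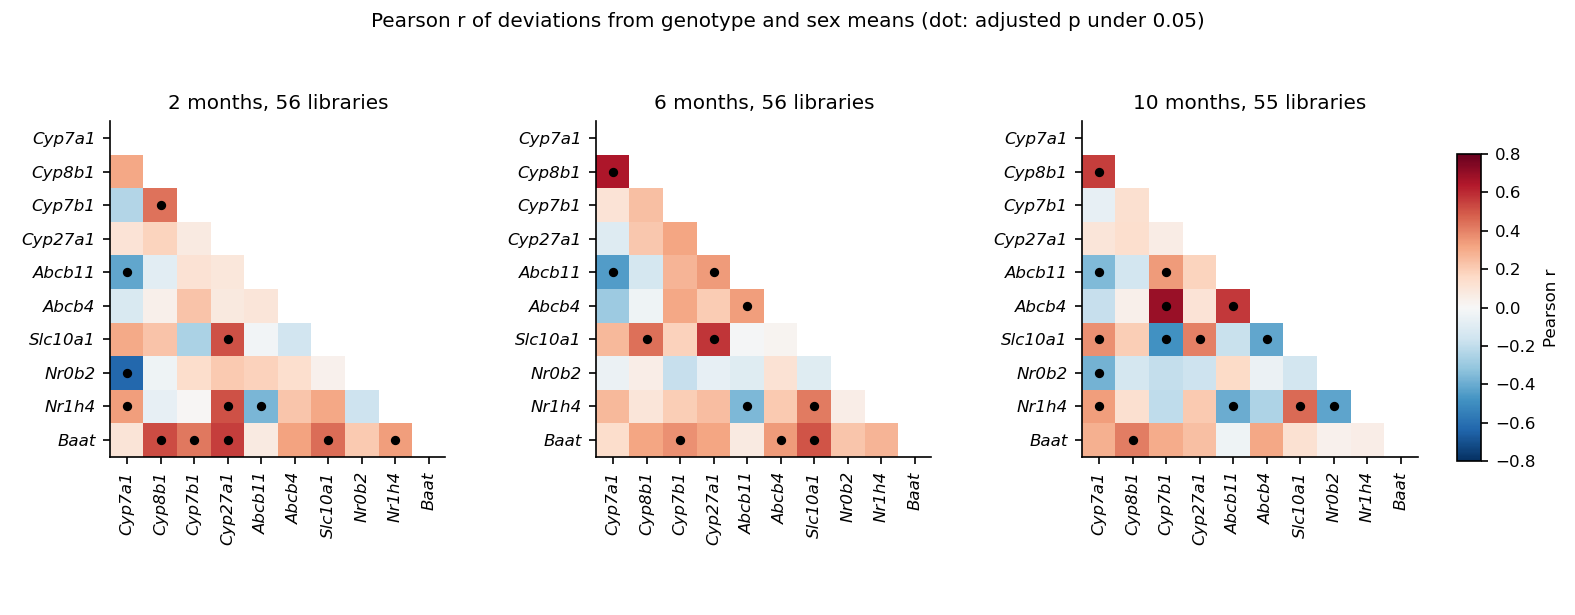
Pearson's r (colour) between each pair of the 10 genes, on deviations from the mean of each genotype and sex, at 2, 6 and 10 months; dots mark an adjusted p under 0.05. Cyp7a1 with Abcb11, Abcb11 with Nr1h4 and Cyp27a1 with Slc10a1 carry a dot in all 3 panels, and Cyp7a1 with Nr0b2 at 2 and 10 months.

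Outside the 10, the genes most like each member were found by Pearson's r of log2 CPM over all libraries, on deviations from the mean of each genotype, age and sex, and are given as a description. Nearest to Cyp7b1 were Mup7 (0.76), Selenbp2 (0.75) and Mup14 (0.74), with 0.66, 0.66 and 0.66 when M5 was left out. Mup7 and Mup14 encode major urinary proteins, a family of near-identical copies between which reads can be split. Slc10a1 was nearest to Slc2a2 (0.79), the glucose transporter of hepatocytes, and Abcb4 to Mmd (0.77). Nr1h4 was nearest to Nr1i3 (0.70), Abcb11 to Tex2 (0.74), Cyp27a1 to Rgn (0.65), Baat to Pno1 (0.63), Higd1a (0.62) and Api5 (0.62) and Cyp8b1 to Atg7 (0.62). Without M5, Atg7 had 0.56 and Lgals8 0.58 with Cyp8b1. The likeness was lowest for Cyp7a1, with Fads6 (0.56), and Nr0b2, with Epha2 (0.51).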

How the data were processed

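PolyA RNA of flash-frozen liver was sequenced, and the deposited tables hold expected counts and FPKM per gene for each library, as the values and names of the tables show. Base calling used CASAVA 1.8.2, per the submitters' processing notes; aligner, build and annotation were not given in the sources used here. Expected counts were deposited by the authors as estimates, of which 14.1% were not whole, and they were rounded here before fitting. FPKM were deposited by the authors and used on a log2(FPKM + 0.1) scale. Of 39179 gene IDs 37607 were matched to a symbol in a table of gene names. Gene positions are those of GENCODE M21 on GRCm38, matched by ID.

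Per age, edgeR 4.0.16 (R 4.3.3) was run with TMM factors, the default low-count filter and a quasi-likelihood fit of genotype and sex, with Benjamini-Hochberg adjustment over all genes. The slope used the repeat length per 100 repeats in the knock-in lines, and age was tested in 1 fit of all libraries. DESeq2 1.42.0 and limma 3.58.1 were alternatives, as were other scaling, no filter, 1 sex, fewer libraries and an older edgeR fit, the last chosen after seeing the data. Correlations used 100000 permutations (2-sided) of the libraries. The fits were tested on simulated data. The members and gene lists were chosen with earlier results of these data known. All 10 members are named in every comparison; of the other pathway lists, up to 4 called genes per list and comparison with the smallest p could be named; of genes like a member, the 3 with the highest r. The main fits did not pair the libraries by replicate number, and a fit with that number as a block was an alternative. Library totals are given with the results, and their part in the values was not tested.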

Additional observations from a re-analysis of the deposited data

Results flagged for a closer look

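Single libraries stood far from the rest of their group in 11 of 210 tests, each of 1 gene in 1 group of 7 or 8 libraries, where the gap to the nearest library was a large part of the whole range. Chance flags about 1 in 20 such tests. Groups hold both sexes, so that a sex difference widens the range. Cyp7a1 had high females: 541 CPM in F4 of Q140 at 6 months, where the other libraries had 50.4 to 126 CPM, and 678 CPM in F2 of Q20 at 10 months, where the other libraries had 156 to 274 CPM. It also had 508 CPM in F2 of Q175 at 10 months, where the other libraries had 56.2 to 239.8 CPM, 444 CPM in F2 of Q111 at 10 months, where the other libraries had 100.04 to 252 CPM, and 567 CPM in F1 of the wild type at 10 months, where the other libraries had 96.6 to 304 CPM.

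Cyp27a1 had low females, with 236 CPM in F2 of Q80 at 2 months, where the other libraries had 378 to 500.2 CPM, and 342 CPM in F3 of Q92 at 6 months, where the other libraries had 425 to 486 CPM. Nr0b2 had 41.4 CPM in M3 of Q111 at 10 months, where the other libraries had 11.3 to 20.6 CPM, 46.2 CPM in M3 of Q20 at 2 months, where the other libraries had 12.9 to 24 CPM, and 8.01 CPM in F3 of Q175 at 10 months, where the other libraries had 15.7 to 22 CPM. Nr1h4 had 80.6 CPM in M1 of Q175 at 6 months, where the other libraries had 114 to 137 CPM; this is the library that lay within the Q20 range. Leaving it out gave the highest log2 fold change of Nr1h4 in Q175 over Q20, 0.43. Of the libraries named, Q175 F3 of 10 months also held muscle or blood RNA above the limit set, and Q111 F2 and M3 of 10 months had Krt19, a bile duct marker, above 10 CPM. The part of these in the values was not tested.

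The sex difference of Slc10a1 was 0.33 higher on the log2 scale at 6 than at 2 months (adjusted p = 0.019, edgeR's quasi-likelihood test). At 6 months the libraries of the knock-in lines have another form of name, and age and that form cannot be told apart.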

How the results depend on the processing

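The sex differences of Cyp7b1, Cyp8b1, Cyp7a1, Abcb11, Nr1h4 and Baat kept their direction and stayed past the threshold at each age under the alternatives run. Most of the few calls over Q20 or for the slope at 6 months did not. Nr1h4 in Q92 over Q20 was lost only in males alone (0.30, adjusted p = 0.39, quasi-likelihood test). In Q175 over Q20 livers 2 members passed, and 1 in females alone, 1 in males alone (Slc10a1, where Nr1h4 had 0.42 (adjusted p = 0.074) and Baat 0.13 (adjusted p = 0.39)), 1 with limma on log2(FPKM + 0.1), 1 on log2(FPKM + 1), 1 without the filter and 1 with only these groups. Without F1, F3 and F4 of the Q20 females 0 passed, and leaving out each replicate gave 1 to 2. The slope at 6 months called 1 member and 0 in females alone, in males alone, without the filter, without Q175, without Q20 or without the 3 Q20 females. In Q92 2 passed, 1 with DESeq2's kind of size factors, without the filter, with the older edgeR fit or without the 3 Q20 females, and 0 in males alone. In Q80 0 passed, 1 with DESeq2 and 2 in females alone, and in Q140 1 in females alone. The difference of slopes between the sexes at 6 months called 1 with DESeq2. Wild-type age at 6 against 2 months called 1 without M5, and 7 correlations of 6 months passed without the 3 Q20 females. Fits of 1 sex or without groups hold fewer libraries; the cause of the other changes was not tested.

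These values turned in sign, none of them past the threshold: Abcb4 in Q92 at 6 months, which passed in females alone (0.42, adjusted p = 0.043), was −0.056 in males alone and −0.016 without the 3 Q20 females. Abcb4 in females over males at 10 months was 0.048 and 0.047 on the 2 FPKM scales. Cyp7a1 in Q80 at 6 months was 0.53 in males alone. Slc10a1 at 6 months was 0.31 in Q140 males alone, 0.016 in Q140 without the 3 Q20 females and −0.15 in Q175 females alone, where Slc10a1 passed in Q140 females alone and Q175 males alone. The count of all genes called also moved by over 1.5 times between the alternatives in these comparisons, given with its range over them. For age and sex it was 210 (98 to 224) for 10 against 6 months in the wild type, 427 (158 to 560) for 6 against 2 months in the wild type, 549 (385 to 1214) for the sex difference at 10 against 2 months and 156 (112 to 252) for the sex difference at 6 against 2 months. For the repeat length it was 93 (1 to 723) for the slope at 10 months, 41 (1 to 169) for the slope at 2 months, 972 (21 to 1084) for the slope at 6 months, 27 (1 to 132) for the slope of females against that of males at 10 months and 35 (0 to 174) for the slope of females against that of males at 6 months. Between genotypes at 2 months it was 0 (0 to 24) for Q140 over Q20, 47 (0 to 140) for Q175 over Q20, 0 (0 to 1) for Q20 over the wild type, 15 (0 to 23) for Q80 over Q20 and 0 (0 to 3) for Q92 over Q20. At 6 months it was 194 (0 to 809) for Q111 over Q20, 936 (2 to 1556) for Q140 over Q20, 1699 (13 to 2031) for Q175 over Q20, 1455 (0 to 1609) for Q80 over Q20 and 2814 (0 to 3187) for Q92 over Q20. At 10 months it was 174 (0 to 195) for Q111 over Q20, 1 (0 to 10) for Q140 over Q20, 197 (0 to 402) for Q175 over Q20, 2 (1 to 5) for Q20 over the wild type, 2 (0 to 63) for Q80 over Q20 and 627 (2 to 825) for Q92 over Q20. The lowest of Q175 over Q20 and of the slope at 6 months came without the 3 Q20 females. With the form of the name as a covariate at 2 and 10 months the counts of members did not change, and those of all genes were 87 for the slope, 77 for Q175 and 3 for Q80 at 2 months and 415 for Q92 at 10 months.

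The main fits did not treat libraries as paired by replicate number. The correlation of same-numbered libraries of each genotype and Q20 ran from −0.51 to 0.27 at 2 months, −0.29 to 0.48 at 6 months and −0.37 to 0.44 at 10 months. In no comparison were all above 0.1, but 16 of 47, 23 of 48 and 12 of 47 were at these ages. At 6 months 6 of 8 were above 0.1 for Q111 and 5 of 8 for Q175. Whether a weaker pairing is present was not tested. For Q92 and Q20 at 6 months, whose same-numbered libraries also share a number in their names, 5 of 8 were. With the replicate number as a block, 1 member passed in Q92 at 6 months (Cyp8b1 had −0.87 (adjusted p = 0.0524)) and 1 in the difference of slopes at 6 months, Nr0b2 in females over males at 2 months was −0.25 (adjusted p = 0.22), Nr0b2 in the knock-in lines at 10 against 2 months was −0.31 (adjusted p = 0.0469), and Abcb4 at 2 months was −0.00041. The spread between animals, widest in Cyp8b1, Cyp7a1 and Nr0b2, limits what could be detected.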
